A study of Mus musculus with 15 samples.

Results

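The Notch pathway was followed through 10 genes in the developing mouse stomach, namely the receptors Notch1, Notch2, Notch3 and Notch4, the ligands Dll1, Dll4, Jag1 and Jag2, and the targets Hes1 and Hes5. These genes were chosen by symbol, and they make up 10 of the 44788 gene symbols in the deposited tables. RNA-Seq was carried out on whole stomachs of C57BL/6 mice at 15 time points, with 1 library per time point, and no genotype or treatment differed between them. Each library was placed by its age label in 1 of 3 groups, which were fetal (daily from E12.5 to E18.5, n = 7), suckling (D1, D3, D5, W1 and W2, n = 5) and weaned (W3, W6 and W8, n = 3), where E is the embryonic day and D and W are the days and weeks after birth. The study's reporting summary describes a replicate as pooled stomachs up to E17.5 and as a single stomach at the later ages, without saying whether this holds for the RNA, and it names male animals at ages above W2 only. Sex therefore changes together with the step from the suckling to the weaned group, and age and sex cannot be told apart there. No time point has a replicate, so the time points of a group stand in for replicates, and every SD given here includes change with age.

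Notch is a receptor that is read out by contact. A Delta-like or Jagged ligand on a neighbouring cell exposes the receptor to cleavage by ADAM proteases and then by gamma-secretase, and the freed intracellular domain joins RBPJ and Mastermind in the nucleus to switch on Hes and Hey repressors. In the stomach the pathway is known for keeping epithelial progenitors dividing and undifferentiated, and in the vessel wall Notch4 and Dll4 are known from endothelial cells and Notch3 from mural cells.

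The values are FPKM (fragments per length of transcript and per sequenced library), a share of the library that is corrected for gene length. Levels are given in FPKM, and changes are given as differences of log2(FPKM + 1), a scale that understates the change of genes with low values. The 10 most abundant genes took 11.2% of the summed FPKM at E14.5 and 53.2% at W6. On the log2 scale, the median change of all 16902 symbols that reached 1 FPKM was -0.22 from the fetal to the suckling group and -0.42 from the suckling to the weaned group. After median-ratio scaling, which sets each library against the typical gene, these medians were 0.00 and -0.02. Changes below are given on both scales wherever the scaling altered a call or a direction. In whole organs, fewer cells of a type and less RNA per cell cannot be told apart.

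The stomach label was checked against the epithelium of the glandular stomach. Tff1, which encodes a mucus peptide of surface cells, lay between 152.9 FPKM at E12.5 and 112800 FPKM at W6, and Cldn18, a claudin of gastric epithelium, was at least 7.46 FPKM in every library. Some libraries stood apart in their markers. Summed exocrine pancreas markers reached 58.3 FPKM at E15.5 and 147 FPKM at D3, above the libraries next to them. Ctrb1 alone had 39.3 and 84.5 FPKM of these sums. The weaned libraries also had exocrine sums of 77.2 to 104.6 FPKM, of which Cela1 alone had 72.4 to 96 FPKM. Summed squamous forestomach markers were 9.70 FPKM at W8 against 349.9 FPKM at W6. Counts of called genes are therefore also given without E15.5, D3 and W8.

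Of the 10 genes, 8 differed across the 3 age groups (limma moderated F test, Benjamini-Hochberg adjusted p under 0.01), where 67.9% of all tested symbols did, and 7 did after median-ratio scaling, where 57.7% of all did. The genes that did not pass were Notch4 (limma adjusted p = 0.0165) and Hes1 (limma adjusted p = 0.0984), and after scaling Jag1 (limma adjusted p = 0.0196), Jag2 (limma adjusted p = 0.0639) and Hes1 (limma adjusted p = 0.0823) did not pass while Notch4 did (limma adjusted p = 0.00458). Hes5, which passed the filter on low values only through fetal libraries, is among the 8, and a fetal difference was built into its inclusion. From the fetal to the suckling group 6 genes, Hes5 among them, fell and 0 rose, against 30.6% and 10.8% of all tested symbols. From the suckling to the weaned group 6 genes fell and 0 rose, against 28.9% and 2.57% of all tested symbols. Without W6 it was 2 (Notch3 and Dll4), where 8.05% of all tested symbols fell, and without W8 it was 3 (Notch1, Notch3 and Dll4), where 17.9% did. Over the fetal days 4 genes fell and 0 rose, against 25.0% and 14.3% of all tested symbols, and the counts were the same after scaling, against 18.0% and 18.1%. The median change of the 10 genes was -0.70 from fetal to suckling and -1.07 from suckling to weaned. After median-ratio scaling these medians were -0.46 and -0.61, 4 genes fell and 0 rose at the first step against 15.0% and 17.0% of all tested symbols, and 3 fell and 1 rose at the second, where 7.72% of all tested symbols fell and 20.2% were called in either direction. Without E15.5, D3 and W8, 7 genes differed across the groups against 54.1% of all tested symbols, 3 fell at the first step against 16.9%, and 1, Dll4, fell at the second against 3.93%.

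**Figure D1:**
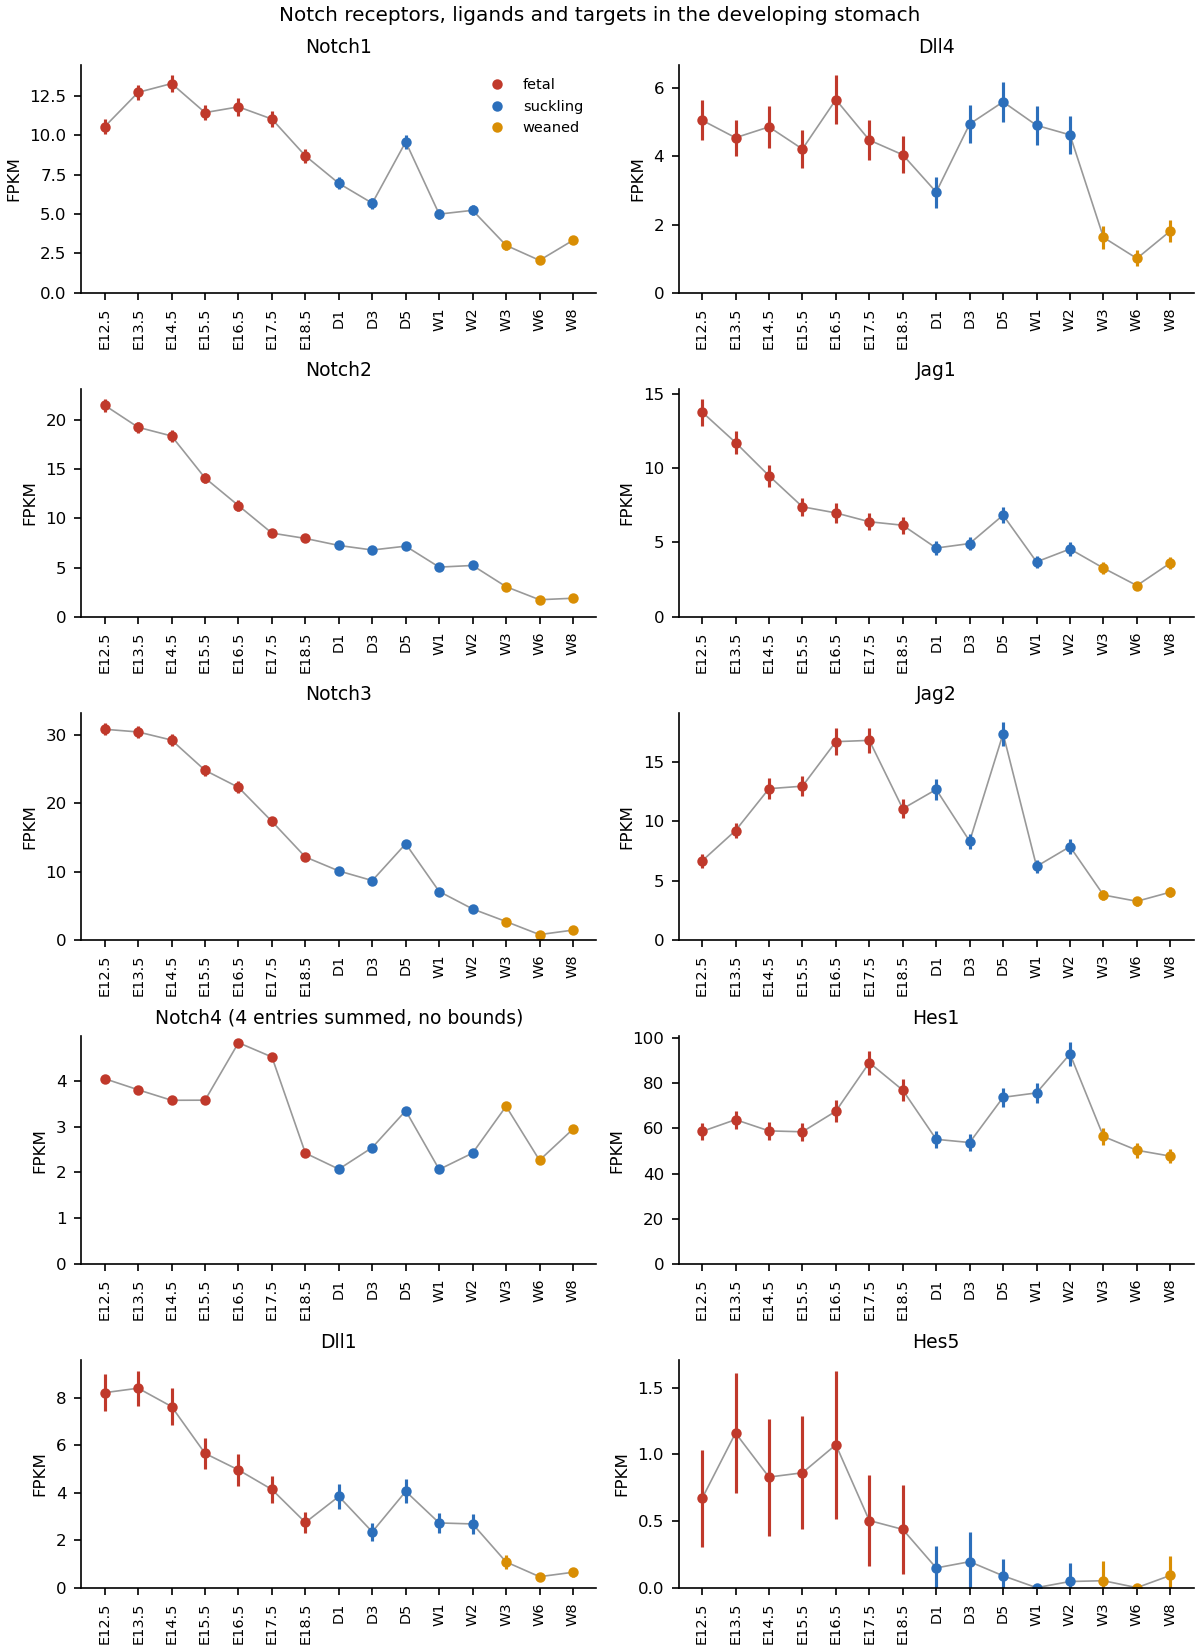
FPKM (linear axes from 0) of the 10 genes at each of the 15 time points, with 1 library per point, colours for the age groups and bars for the deposited confidence bounds, which Notch4 lacks because its 4 entries were summed. Notch2, Notch3 and Dll1 descend through fetal life and are lowest at W6, Jag2 has its highest fetal value at E17.5, Hes1 stays between 47.7 and 93.0 FPKM, and Hes5 is at most 0.195 FPKM at every time point after birth.

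Among the receptors, Notch3 covered the widest range. Its gene lies on chromosome 17 (GRCm38, 32120893 to 32166852). In the fetal group it ranged from 12.1 FPKM at E18.5 through a median of 24.8 FPKM to 30.8 FPKM at E12.5. In the suckling group its values were 10.1 FPKM at D1, 8.70 FPKM at D3, 14.1 FPKM at D5, 7.11 FPKM at W1 and 4.57 FPKM at W2, and in the weaned group 2.73 FPKM at W3, 0.827 FPKM at W6 and 1.48 FPKM at W8. Its highest value was thus 37.2 times its lowest. The suckling values overlapped the fetal range only through D5, and no weaned value reached the suckling range. Notch3 fell from fetal to suckling (log2 change -1.34, SE 0.27, limma adjusted p = 0.00116) and again to weaned (-1.87, SE 0.34, limma adjusted p = 0.000903), and both calls held after median-ratio scaling. Without E15.5, D3 and W8 the second change was -1.84 (limma adjusted p = 0.0161).

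Notch2 (chromosome 3, 98013538 to 98150367) shared this course. Its fetal values ran from 7.97 FPKM at E18.5 through a median of 14.1 FPKM to 21.5 FPKM at E12.5. The suckling values were 7.25 FPKM at D1, 6.79 FPKM at D3, 7.18 FPKM at D5, 5.04 FPKM at W1 and 5.21 FPKM at W2, and the weaned values were 3.05 FPKM at W3, 1.72 FPKM at W6 and 1.87 FPKM at W8. None of the 3 age groups overlapped another. Every suckling value was below every fetal one for 2 of the 10 genes, against 20.9% of all tested symbols. These were Notch2 and Hes5, and Hes5 had passed the filter through fetal libraries alone. Notch2 fell at the first step (log2 change -1.01, SE 0.23, limma adjusted p = 0.00225) and at the second (-1.19, SE 0.29, limma adjusted p = 0.00416). After scaling the second change was -0.77 (limma adjusted p = 0.0232) and no longer passed. The second call was also lost without W6 (limma adjusted p = 0.0287), W8 (0.0186), D3 (0.0101) or D5 (0.0106), and without E15.5, D3 and W8 both calls were lost (limma adjusted p = 0.0132 and 0.0469).

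Notch1 (chromosome 2, 26457902 to 26503822), the receptor best known from progenitor cells, had no called fetal trend. It ranged from 8.70 FPKM at E18.5 through a median of 11.4 FPKM to 13.3 FPKM at E14.5. The suckling values were 6.95 FPKM at D1, 5.69 FPKM at D3, 9.59 FPKM at D5, 5.0 FPKM at W1 and 5.24 FPKM at W2, and the weaned values were 3.02 FPKM at W3, 2.06 FPKM at W6 and 3.34 FPKM at W8. D5 was the one suckling value inside the fetal range, and the weaned values lay apart. The level fell at the first step (log2 change -0.75, SE 0.15, limma adjusted p = 0.00101) and at the second (-0.96, SE 0.18, limma adjusted p = 0.0012), where scaling left -0.51 (limma adjusted p = 0.0167). The second call was also lost without W6 (-0.81, limma adjusted p = 0.0121) and without E15.5, D3 and W8 (limma adjusted p = 0.0112).

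Notch4 did not follow the other receptors. The files hold 4 entries for it, 1 on chromosome 17 (34564277 to 34588543) and 3 on other sequences, and the sum of the entries may count the same fragments more than once. The summed values ranged from 2.42 FPKM at E18.5 through 3.80 FPKM to 4.83 FPKM at E16.5 in the fetal group. They were 2.07 FPKM at D1, 2.54 FPKM at D3, 3.35 FPKM at D5, 2.06 FPKM at W1 and 2.42 FPKM at W2, and 3.44 FPKM at W3, 2.27 FPKM at W6 and 2.95 FPKM at W8. All 3 groups overlapped on this scale. Notch4 fell from fetal to suckling by a narrow margin (log2 change -0.46, SE 0.14, limma adjusted p = 0.00974), which was lost with the first entry alone (-0.33, limma adjusted p = 0.0146) and after scaling (-0.24, limma adjusted p = 0.0818). To the weaned group the change was +0.16 (SE 0.17, limma adjusted p = 0.449), and after scaling Notch4 rose by 0.61 (limma adjusted p = 0.0044), with weaned values of 4.53, 3.97 and 4.35 scaled FPKM above suckling values of 2.04 to 3.15 scaled FPKM.

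The make-up of the receptor pool differed by age, and shares within a library do not depend on the scaling. Of the FPKM summed over the 4 receptors, Notch3 took 38.9% to 46.0% in the fetal group, 26.2% to 41.2% in the suckling group and 12.03% to 22.3% in the weaned group. Notch4 took 5.5% to 10.9% in the fetal group, 7.8% to 13.9% in the suckling group and 28.1% to 33.0% in the weaned group. With the first Notch4 entry alone its weaned share was 12.04% to 13.6%, still above the 2.0% to 5.3% of all earlier libraries. Notch1 and Notch2 took 15.8% to 34.6% and 19.4% to 32.2% over the 15 libraries. With the first Notch4 entry alone they took 16.4% to 43.3% and 22.2% to 33.5%. The Notch1 share was then highest at W8 and lowest at E12.5.

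**Figure D2:**
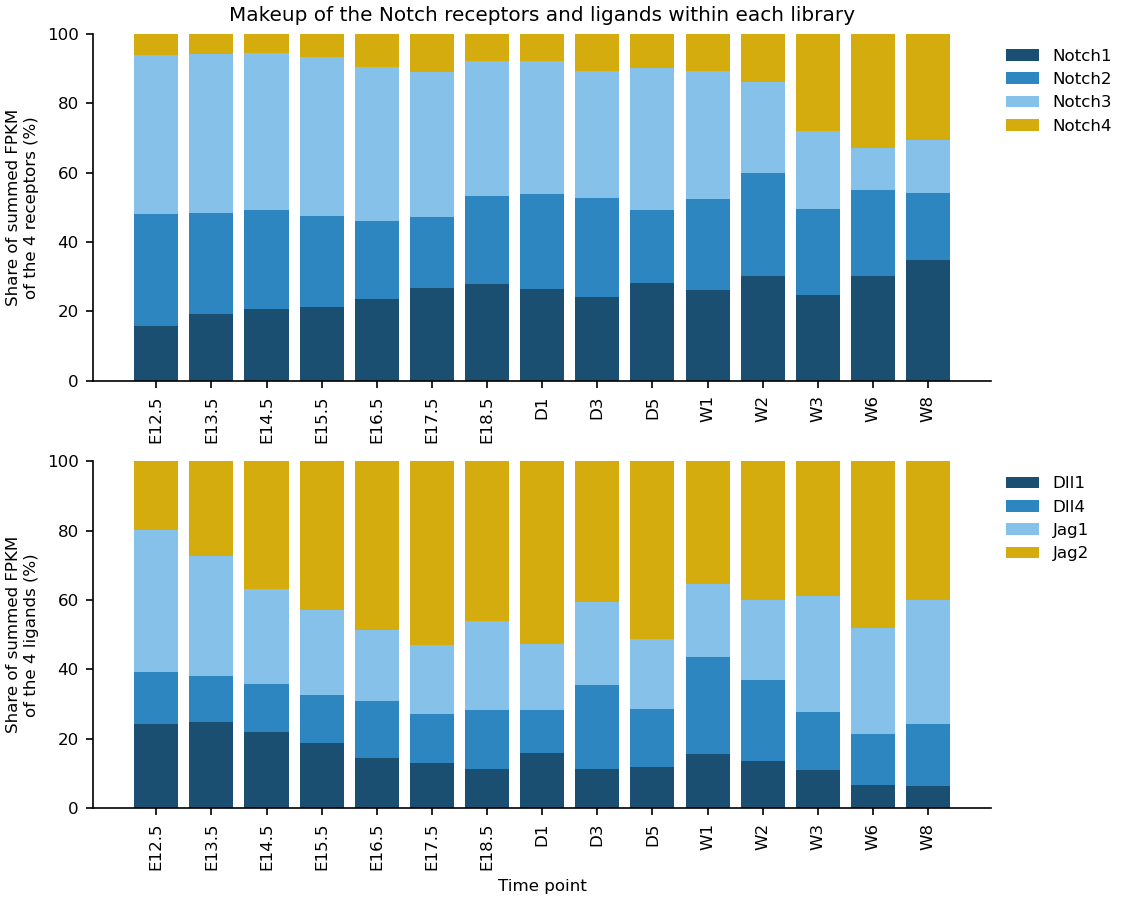
Share (%) of each receptor in the FPKM summed over the 4 receptors, and of each ligand in the FPKM summed over the 4 ligands, by time point (1 library each). The Notch3 share is 46.0% at E12.5 and 12.03% at W6, the Notch4 share is widest in the weaned libraries, and the larger Jagged share is that of Jag1 at E12.5 and of Jag2 at E17.5.

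The ligands fell into separate courses. Jag1 (chromosome 2, 137081451 to 137116520) and Jag2 (chromosome 12, 112907803 to 112929764), which encode the Jagged ligands, had fetal slopes of opposite sign. Jag1 was highest at E12.5 with 13.8 FPKM, had a fetal median of 7.41 FPKM and was lowest at E18.5 with 6.16 FPKM, whereas Jag2 was lowest at E12.5 with 6.68 FPKM, had a median of 12.8 FPKM and was highest at E17.5 with 16.8 FPKM. The fetal trend was called for Jag1 (log2 change -0.18 per day, SE 0.02, limma adjusted p = 0.000791). For Jag2 it was +0.14 per day (SE 0.06, limma adjusted p = 0.0721), and without E18.5, where Jag2 was back at 11.1 FPKM, it was +0.24 per day (limma adjusted p = 0.00366). Whether the slopes of the 2 genes differ was not tested.

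After birth Jag1 stood at 4.62 FPKM at D1, 4.93 FPKM at D3, 6.85 FPKM at D5, 3.69 FPKM at W1 and 4.56 FPKM at W2, and then at 3.27 FPKM at W3, 2.09 FPKM at W6 and 3.62 FPKM at W8. D5 alone overlapped the fetal values, and every weaned value lay below the lowest suckling one, W8 by the least. Jag1 fell from fetal to suckling (log2 change -0.70, SE 0.19, limma adjusted p = 0.00717), a call lost after scaling (-0.45, limma adjusted p = 0.0321), without E15.5, D3 and W8, and without any 1 of 8 single libraries. Its change to the weaned group did not pass (-0.57, SE 0.24, limma adjusted p = 0.0614).

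Jag2 stood at 12.7 FPKM at D1, 8.34 FPKM at D3, 17.4 FPKM at D5, 6.22 FPKM at W1 and 7.88 FPKM at W2, and then at 3.81 FPKM at W3, 3.28 FPKM at W6 and 4.05 FPKM at W8. The suckling values spanned the whole fetal range and passed it at both ends, and all weaned values were lower than both. The first step was -0.24 (SE 0.24, limma adjusted p = 0.396). Jag2 fell at the second step (log2 change -1.21, SE 0.30, limma adjusted p = 0.00502), and scaling left -0.72 (limma adjusted p = 0.068). The call was also lost without any 1 of D1, D5, W3, W6 and W8 (limma adjusted p from 0.0107 to 0.0294), without E15.5, D3 and W8 (0.0298) and with no filter on low values (0.0108). Beside this, the summed squamous forestomach markers were 43.2 FPKM at E12.5, 7432 FPKM at E17.5 and 9.70 FPKM at W8. Pearson r was taken over the 15 libraries, which share an order of age. It was taken with the mean log2(FPKM + 1) of a list's markers that reached 1 FPKM, not with the sum. For Jag2 it was 0.72 with these squamous markers (0.73 after scaling). It was as high or higher with endothelial (0.85), fibroblast (0.78) and enteric markers (0.72), which had 0.67, 0.51 and 0.39 after scaling. The part of these cells in the Jag2 course was not tested.

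Dll1 (chromosome 17, 15367354 to 15376872), a Delta-like ligand, resembled Notch2 and Notch3. Its fetal values ran from 2.75 FPKM at E18.5 through a median of 5.66 FPKM to 8.40 FPKM at E13.5. They were followed by 3.84 FPKM at D1, 2.35 FPKM at D3, 4.06 FPKM at D5, 2.73 FPKM at W1 and 2.69 FPKM at W2, and by 1.08 FPKM at W3, 0.463 FPKM at W6 and 0.649 FPKM at W8. Fetal and suckling values overlapped through E18.5, and the weaned values lay apart. The first step narrowly missed the threshold (log2 change -0.70, SE 0.22, limma adjusted p = 0.0129). Dll1 fell at the second step on both scales (-1.25, SE 0.27, limma adjusted p = 0.00233), although without W6 the limma adjusted p was 0.0186, without W8 it was 0.0103 and without E15.5, D3 and W8 it was 0.0219.

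Dll4 (chromosome 2, 119325725 to 119335666), the Delta-like ligand of endothelial cells, had no called change before weaning. Its fetal values lay between 4.05 FPKM at E18.5 and 5.66 FPKM at E16.5, with a median of 4.55 FPKM. The suckling values were 2.95 FPKM at D1, 4.95 FPKM at D3, 5.599 FPKM at D5, 4.91 FPKM at W1 and 4.63 FPKM at W2, and the weaned values were 1.63 FPKM at W3, 1.01 FPKM at W6 and 1.81 FPKM at W8. All suckling values except D1 were inside the fetal range, and every weaned value was below every earlier one. The first step was -0.04 (SE 0.13, limma adjusted p = 0.812) and +0.19 after scaling (limma adjusted p = 0.192). Dll4 fell at the second step (log2 change -1.17, SE 0.16, limma adjusted p = 0.000237), also after scaling (-0.80, limma adjusted p = 0.00131).

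Weaned values without overlap below the suckling ones were found for 7 of the 10 genes, namely Notch1, Notch2, Notch3, Dll1, Dll4, Jag1 and Jag2, against 46.5% of all tested symbols. After scaling 6 of them, all but Jag1, still lay apart, against 17.3%. In the summed FPKM of the 4 ligands, Jag1 took 40.9% and Jag2 19.8% at E12.5, and Jag1 took 20.1% and Jag2 52.8% at E17.5. Dll1 took at most 24.8% in the fetal group and 6.4% to 11.1% in the weaned group, and Dll4 took 12.3% to 28.0% over the 15 libraries.

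**Figure D3:**
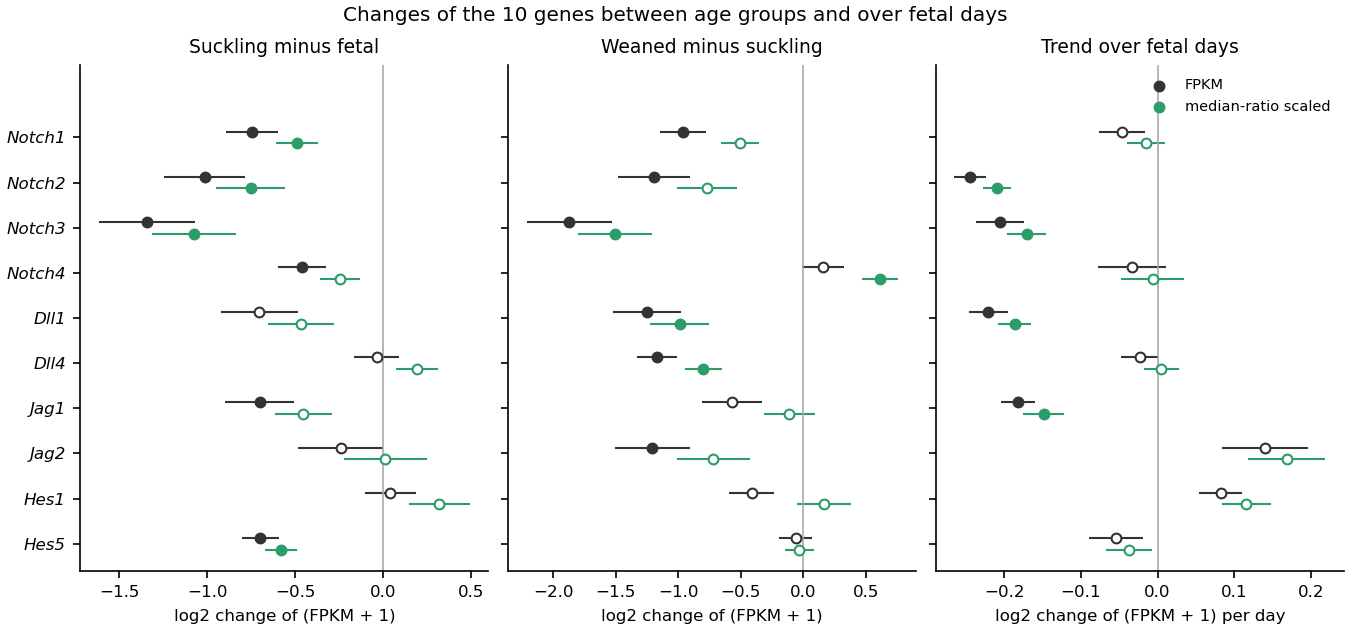
Changes of the 10 genes on the log2(FPKM + 1) scale from fetal to suckling, from suckling to weaned and per fetal day, from FPKM (dark) and from median-ratio scaled FPKM (green). Bars are SE and filled points have a limma adjusted p under 0.01. Notch3 has the most negative value at both steps, and Notch4 lies to the right of 0 at the second step, filled only after scaling.

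The targets differed from each other. Hes1 (chromosome 16, 30065357 to 30067796), a repressor that is known to hold back endocrine and other differentiation programmes, was the most abundant of the 10 genes in every group. Its fetal values lay between 58.5 FPKM at E15.5 and 89.1 FPKM at E17.5, with a median of 63.9 FPKM. It stood at 55.2 FPKM at D1, 53.8 FPKM at D3, 73.8 FPKM at D5, 75.7 FPKM at W1 and 93.0 FPKM at W2, and then at 56.4 FPKM at W3, 50.3 FPKM at W6 and 47.7 FPKM at W8. The groups overlapped at both steps, and the highest value was 1.95 times the lowest. The changes were +0.04 (SE 0.15, limma adjusted p = 0.824) and -0.41 (SE 0.18, limma adjusted p = 0.0698), and the second was +0.17 after scaling (limma adjusted p = 0.565), so that its sign depends on the scaling.

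Hes5 (chromosome 4, 154958663 to 154962372), a repressor of the same family known from neural progenitors, was near the limit of detection. Its fetal values ran from 0.437 FPKM at E18.5 through a median of 0.830 FPKM to 1.16 FPKM at E13.5. After birth it stood at 0.148 FPKM at D1, 0.195 FPKM at D3, 0.0891 FPKM at D5 and 0.0463 FPKM at W2, at 0.0521 FPKM at W3 and 0.0920 FPKM at W8, and it was listed at 0 at W1 and W6. If the deposited confidence bounds are Poisson, 6.76 to 26.7 fragments stood behind each fetal value and at most 3.24 behind each later one. Every fetal value was above every later one, and Hes5 fell from fetal to suckling (log2 change -0.70, SE 0.11, limma adjusted p = 0.000247), also after scaling. It passed the filter on low values only through E13.5 and E16.5, so a difference of the fetal group was built into its inclusion.

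The bases before the transcription starts were searched for TGGGAA, the core letters of the RBPJ site, and for its reverse complement TTCCCA, in RefSeq promoter windows of 250 bases (GRCm38.p6). Of 32851 windows, 21.59% held at least 1 match and 1.275% held a match on each strand. Windows were found for 9 of the 10 genes, all but Hes1, and Hes5 alone of the 9 had any match. Among 42 other pathway genes with a window, 12 had a match, and Lfng and Rbpj had a pair in 1 window. These 3 windows are shown because each holds a match on both strands, with the matches in capitals, on the plus strand and written toward the start. A match is a description of the letters and not a bound site.
Hes5, chr4:154960673-154960922: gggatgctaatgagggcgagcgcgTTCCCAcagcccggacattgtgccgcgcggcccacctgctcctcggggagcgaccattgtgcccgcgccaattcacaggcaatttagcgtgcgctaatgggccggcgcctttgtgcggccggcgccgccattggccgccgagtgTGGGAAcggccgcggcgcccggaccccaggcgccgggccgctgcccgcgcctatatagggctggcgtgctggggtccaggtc
Lfng, chr5:140607091-140607340: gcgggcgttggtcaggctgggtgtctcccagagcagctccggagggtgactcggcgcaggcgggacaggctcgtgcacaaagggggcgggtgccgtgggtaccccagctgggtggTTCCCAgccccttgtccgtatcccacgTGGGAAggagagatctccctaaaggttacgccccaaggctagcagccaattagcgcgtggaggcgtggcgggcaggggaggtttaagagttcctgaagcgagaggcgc
Rbpj, chr5:53590096-53590345: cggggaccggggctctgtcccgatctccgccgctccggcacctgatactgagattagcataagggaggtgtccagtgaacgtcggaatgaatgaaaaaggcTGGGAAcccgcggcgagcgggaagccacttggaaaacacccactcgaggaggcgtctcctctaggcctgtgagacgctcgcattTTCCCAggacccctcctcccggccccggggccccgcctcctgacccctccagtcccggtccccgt
The outer ends of the matches lie 226 and 82 bases before the start in Hes5, 135 and 108 in Lfng, and 149 and 65 in Rbpj. The genes with these windows had unlike courses. Hes5 was at most 0.195 FPKM after birth, Lfng was highest at E15.5 with 16.4 FPKM, and Rbpj was highest at E12.5 with 21.8 FPKM.

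Over the fetal days the 4 called trends were those of Notch2 (log2 change -0.24 per day, SE 0.02, limma adjusted p = 0.000303), Dll1 (-0.22 per day, SE 0.03, limma adjusted p = 0.000694), Notch3 (-0.21 per day, SE 0.03, limma adjusted p = 0.00183) and Jag1, given above. All 4 held after scaling. Notch1 (-0.05 per day, limma adjusted p = 0.222), Notch4 (-0.03 per day, limma adjusted p = 0.549) and Dll4 (-0.02 per day, limma adjusted p = 0.468) had smaller slopes that did not pass. Hes1 had +0.08 per day (limma adjusted p = 0.042).

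In the order of mean fetal level, Hes1 with 67.7 ± 11.6 FPKM (SD, n = 7) was followed by Notch3 with 23.8 ± 7.10 FPKM and Notch2 with 14.45 ± 5.43 FPKM. Jag2 with 12.3 ± 3.72 FPKM and Notch1 with 11.4 ± 1.51 FPKM came next, and Notch2, Jag2 and Notch1 lay within 1 SD of the more variable gene of each pair. Jag1 had 8.86 ± 2.95 FPKM, Dll1 5.96 ± 2.18 FPKM, Dll4 4.70 ± 0.551 FPKM and Notch4 3.83 ± 0.779 FPKM, and of these neighbours only Dll4 and Notch4 lay more than 1 SD apart. Hes5 was last with 0.791 ± 0.272 FPKM. In the weaned group, Hes1 with 51.5 ± 4.47 FPKM (SD, n = 3) was followed by Jag2 with 3.71 ± 0.393 FPKM, Jag1 with 2.99 ± 0.798 FPKM, Notch4 with 2.88 ± 0.591 FPKM and Notch1 with 2.81 ± 0.662 FPKM, and each of the 4 after Hes1 lay within 1 SD of the next by the more variable gene of the pair. Notch2 had 2.21 ± 0.728 FPKM there, Notch3 1.68 ± 0.967 FPKM, Dll4 1.48 ± 0.421 FPKM and Dll1 0.732 ± 0.319 FPKM. The Notch4 values in both orders are sums of its 4 entries, which may count the same fragments more than once. With the first entry alone, Notch4 lay between Hes5 and Dll4 in every fetal library, from 0.823 FPKM at E18.5 to 1.65 FPKM at E16.5. In every weaned library it lay below Notch2, Notch3 and Dll4 and above Dll1 (0.723 FPKM at W6 and 1.02 FPKM at W8). Its weaned place between Jag1 and Notch1 thus depends on the sum.

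The likeness of courses was described by Pearson r of log2(FPKM + 1) over the 15 libraries, which share an order of age. Within the set, Notch2 and Dll1 had r = 0.98, Notch2 and Notch3 0.98 and Notch3 and Dll1 0.97, and all 3 stayed at 0.95 or above after scaling. Hes1 had its lowest r with Hes5, 0.04, and after scaling its r with Notch2 was -0.78. Of all other tested symbols, Eid2, Qrich1 and H2afy2 were nearest to Notch2 (0.9959 for Eid2), Hspa12b, Itpkb and Maz to Notch3 (0.9963 for Hspa12b), and Tnpo2, Ino80 and Atf7 to Notch1 (0.9834 for Tnpo2). Zfp219, Tada2a and Atrip were nearest to Dll1 (0.9919 for Zfp219), Adrbk2, Fam118a and Dgkz to Dll4 (0.9711 for Adrbk2), Tubgcp6, Zfp280b and Zfp420 to Jag1 (0.9896 for Tubgcp6) and Kremen1, Prkag2 and Celsr2 to Jag2 (0.9627 for Kremen1). Cyp26a1, Rbbp8 and Rbm27 were nearest to Hes5 (0.9657 for Cyp26a1), whereas Notch4 and Hes1 had no near match, with 0.8932 for Dhcr7 and 0.8156 for LOC101055928. After scaling most of the named symbols stayed at 0.87 or above, but r was 0.34 for Dgkz, 0.47 for Prkag2, 0.52 for Rbm27 and 0.42 for LOC101055928.

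The other genes of the pathway were taken from 9 lists of 55 genes, of which 52 reached 1 FPKM. Of the 52, 41 differed across the age groups and 25 did after scaling, where 67.9% and 57.7% of all tested symbols did. From fetal to suckling 3 rose and 23 fell, against 10.8% and 30.6% of all tested symbols. From suckling to weaned 1 rose and 27 fell, against 2.57% and 28.9%, and over the fetal days 3 rose and 17 fell, against 14.3% and 25.0%. Their median changes at the first and second step were -0.42 and -0.61. After scaling 3 rose and 7 fell at the first step, against 17.0% and 15.0% of all tested symbols. At the second step 4 rose and 8 fell, where 7.72% of all fell and 20.2% were called in either direction. Over the fetal days 6 rose and 13 fell, against 18.1% and 18.0%. The scaled medians were -0.16 and -0.10 at the first and second step.

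The glycosyltransferases that modify the receptors all differed across the age groups, 5 of 5, and 4 did after scaling. For this and each list below, 67.9% of all tested symbols differed, and 57.7% did after scaling. Mfng, which encodes Manic fringe, decreased from 12.9 FPKM at E13.5 to 0.923 FPKM at W8, and fell at both steps (log2 changes -0.97 and -1.31, limma adjusted p = 0.00122 and 0.00113), also after scaling. Pofut1 and Poglut1, which add the first sugars, fell at both steps in FPKM, and after scaling at the first step only. In the nuclear complex 7 of 7 differed, and 4 did after scaling. Rbpj, the DNA-binding partner of the cleaved receptor, was 21.8 FPKM at E12.5 and 4.68 FPKM at W6 and fell at both steps (-0.64 and -0.84, limma adjusted p = 0.00108 and 0.00111), while after scaling the second change was -0.33 (limma adjusted p = 0.0332). Maml2, a Mastermind coactivator, fell at both steps (-0.61 and -0.93, limma adjusted p = 0.00198 and 0.000891), after scaling at the second only.

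Among the 10 receptor cleavage genes 5 differed, and 7 did after scaling, against 67.9% and 57.7% of all tested symbols. At the first step 2 of them, Furin and Psen2, rose on both scales, against 10.8% and 17.0%. At the second step 1 rose and 3 fell in FPKM, against 2.57% and 28.9%. After scaling 4 rose and 0 fell there, where 20.2% of all were called in either direction. The 4 were Furin, Psen2 (+0.98, limma adjusted p = 0.000884), Aph1a (+0.44, limma adjusted p = 0.00507) and Aph1c (+0.90, limma adjusted p = 0.00295). The last pair was named after the values had been seen. Furin, which encodes the convertase that cuts the receptor during maturation and also cuts many other proteins, was 20.5 FPKM at E12.5, 43.9 FPKM at D5 and 238.5 FPKM at W8. It rose at both steps (log2 changes +1.10 and +1.96, limma adjusted p = 0.00236 and 0.000478) on both scales. Adam17 and Aph1b, a sheddase and a subunit of gamma-secretase, fell at both steps in FPKM, and after scaling Aph1b fell at the first step only and Adam17 at neither. The other pathway genes that rose at the first step were Psen2, the second presenilin of gamma-secretase (+0.65, limma adjusted p = 0.000523), and Kat2b, an acetyltransferase of the nuclear complex (+0.59, limma adjusted p = 0.00571), both named after their values had been seen.

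Of 6 tested Hes and Hey genes, 4 differed across the groups on either scale, against 67.9% of all tested symbols and 57.7% after scaling. Hey1, a repressor of the Hey family, was 12.8 FPKM at E12.5 and 3.20 FPKM at E18.5 and fell over the fetal days (-0.30 per day, limma adjusted p = 0.00026). Heyl, the Hey family gene known from mural cells, had 3.57 to 7.498 FPKM in the suckling and 0.648 to 1.97 FPKM in the weaned group and fell between them (-1.65, limma adjusted p = 0.000376), and Hey2 fell at both steps (-0.59 and -1.01, limma adjusted p = 0.00416 and 0.000931), after scaling at the second only.

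Of the 4 other ligands 2 differed on either scale. The shares of all tested symbols, here and for the 3 lists that follow, were 67.9% and, after scaling, 57.7%. Dlk1, a Delta-like protein without the receptor-activating domain and an imprinted gene of fetal tissues, was 540.2 FPKM at E14.5 and 2.17 FPKM at W8, and it fell at both steps (-1.92 and -4.87, limma adjusted p = 0.00767 and 0.000244), after scaling at the second only. Dll3, a Delta-like protein that stays inside the cell, fell at the first step (-0.95, limma adjusted p = 0.00281). All 4 ubiquitin ligases that act on ligands differed, 1 of them after scaling, with Mib1, the main one, falling at both steps in FPKM (-0.45 and -0.57, limma adjusted p = 0.00117 and 0.00146) but at neither after scaling. All 5 corepressors differed as well, and after scaling 0 of them did. Of the 9 genes of receptor turnover and inhibition 8 differed and 2 did after scaling, with Numbl falling at the second step on both scales (-1.68, limma adjusted p = 0.000283).

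**Figure D4:**
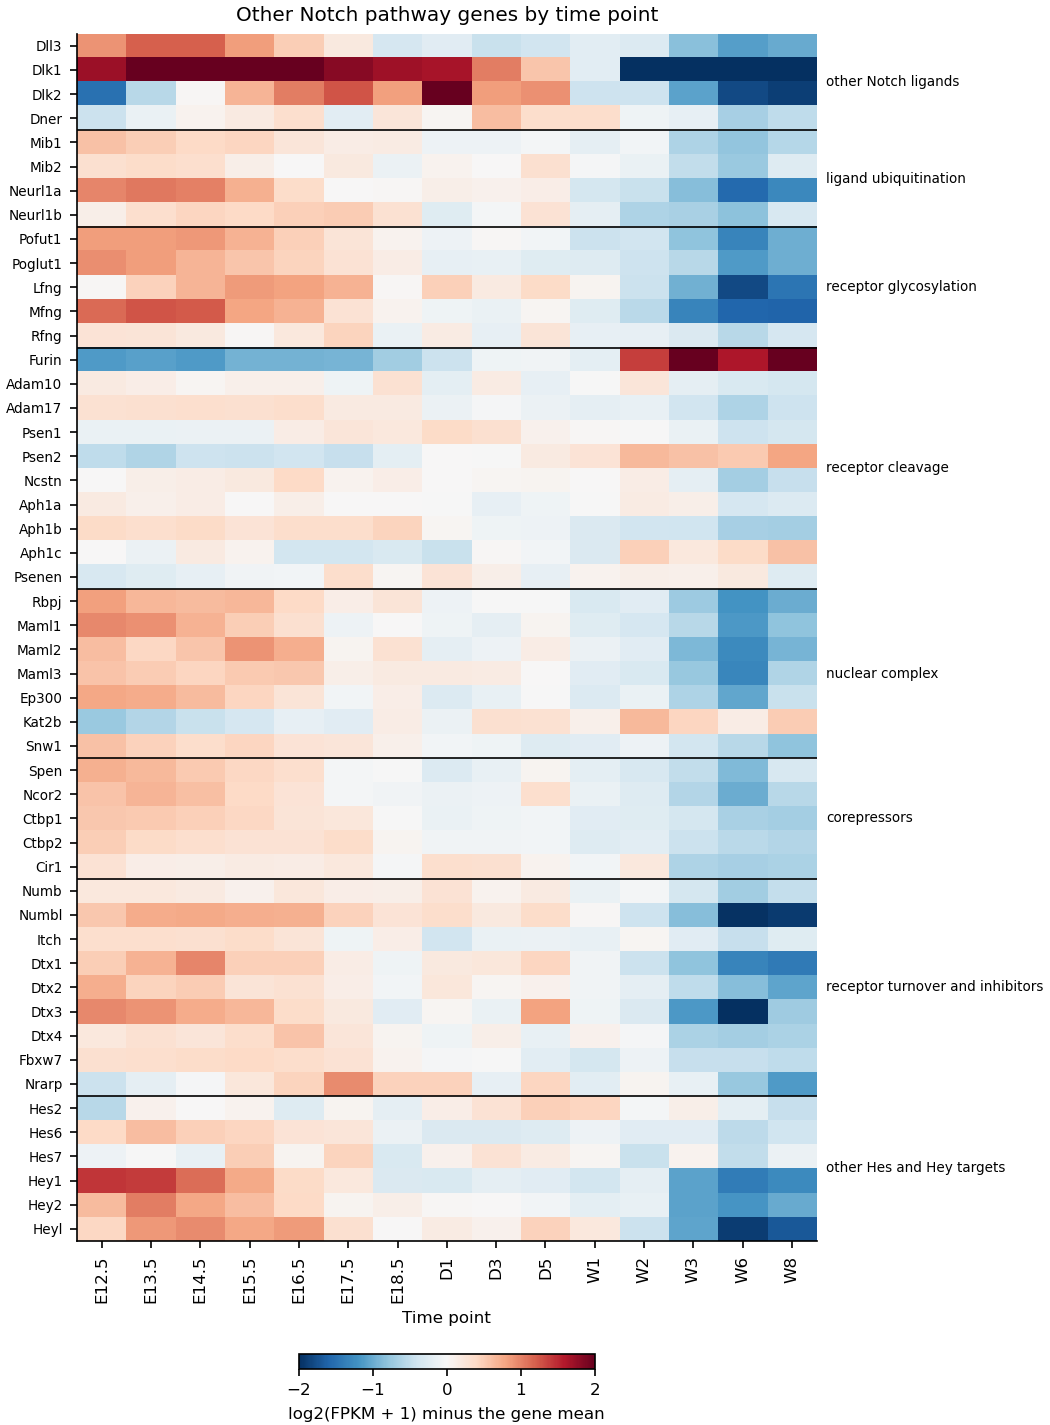
Levels of 50 of the 52 other pathway genes that reached 1 FPKM, in 8 of the 9 lists, as log2(FPKM + 1) minus the mean of the gene over the 15 libraries, with colours that saturate at 2 in either direction. Most lists are red in fetal libraries and blue in weaned ones, while Furin has the opposite course, with 20.5 FPKM at E12.5 and 238.5 FPKM at W8.

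Markers of the cell types that carry these genes moved with age too. All 8 endothelial markers differed across the groups and 7 fell at weaning (5 and 5 after scaling). Of all tested symbols 67.9% differed and 28.9% fell at weaning (57.7% and 7.72% after scaling). The endothelial sums were 109 to 156 FPKM in the fetal, 89.7 to 158 FPKM in the suckling and 32.6 to 59.5 FPKM in the weaned group. Over the 15 libraries the r with the mean log2(FPKM + 1) of these markers was 0.95 for Notch3, 0.94 for Notch1, 0.92 for Dll4 and 0.91 for Dll1 (0.85, 0.82, 0.79 and 0.79 after scaling). For Notch4 it was 0.47, and -0.42 after scaling. The 7 mural and smooth muscle markers had sums of 938 to 3383 FPKM, 2473 to 5585 FPKM and 1191 to 3604 FPKM in the same order. Notch3 had r = 0.04 with their mean log2(FPKM + 1) (-0.48 after scaling). These markers did not move as 1 group. Acta2, of smooth muscle, alone had 674 of the 938 FPKM at E12.5 and 2070 of the 3383 FPKM at E18.5. Over the fetal days 4 of the 7 rose and 1 fell on both scales. Of all tested symbols 14.3% rose and 25.0% fell there (18.1% and 18.0% after scaling). Pdgfrb was 32.2 FPKM at E12.5 and 10.4 FPKM at E18.5. At the first step Des, of smooth muscle, rose (+2.25, limma adjusted p = 0.00459) and Pdgfrb, of pericytes, fell (-0.99, limma adjusted p = 0.00573), after scaling -0.72 (limma adjusted p = 0.0169), and the median of the 7 was +0.71. Acta2, Des and Pdgfrb were named after their values had been seen.

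Summed enteric neuron and glia markers were 58.3 to 145 FPKM in the fetal, 39.6 to 62.3 FPKM in the suckling and 11.9 to 21.7 FPKM in the weaned group. Of 7 markers 4 fell and 2 rose at the first step and 6 fell at the second (after scaling 3, 2 and 3). Of all tested symbols 30.6% fell and 10.8% rose at the first step and 28.9% fell at the second (after scaling 15.0%, 17.0% and 7.72%). The r with the mean log2(FPKM + 1) of the enteric markers was 0.97 for Notch3 and Notch2, 0.96 for Dll1, 0.92 for Notch1 and 0.76 for Hes5. After scaling it was 0.94 for Notch3, 0.93 for Notch2, 0.92 for Dll1, 0.81 for Notch1 and 0.70 for Hes5. Summed markers of dividing cells were 175 to 366 FPKM, 68.5 to 127 FPKM and 34.7 to 65.1 FPKM, with 6 of 6 falling at the first step. The r with their mean log2(FPKM + 1) was 0.95 for Notch2 and Notch3, 0.92 for Notch1 and Hes5, 0.91 for Jag1 and 0.90 for Dll1. After scaling it was 0.90 for Notch2 and Notch3, 0.83 for Notch1, 0.92 for Hes5, 0.78 for Jag1 and 0.80 for Dll1. Summed glandular epithelial markers went the other way, with 572 FPKM at E12.5 and 118270 FPKM at W6, of which Tff1 alone had 112800 FPKM. Epcam, of the same list, was 85.5 FPKM at E12.5 and 75.5 FPKM at W6. Of the 8 markers 3 rose and 0 fell at the first step (4 and 0 after scaling), where 10.8% of all tested symbols rose (17.0% after scaling). At the second step 1 rose and 0 fell on either scale. There 2.57% of all tested symbols rose, and 20.2% were called in either direction after scaling. Fibroblast and mesenchyme markers were 1740 to 2763 FPKM in the fetal group and 244 to 1124 FPKM in the weaned group, and 5 of 6 fell at weaning (3 after scaling). With their mean log2(FPKM + 1), r was 0.92 for Notch3, 0.89 for Dll1 and 0.88 for Notch2 (0.86, 0.81 and 0.77 after scaling). Of 6 leukocyte markers 3 reached 1 FPKM, and 0 of the 3 differed across the groups, while after scaling all 3 did (limma adjusted p from 0.00284 to 0.00627). Across the groups 67.9% of all tested symbols differed, and 57.7% did after scaling. The part of any of these cell types in the changes of the 10 genes was not tested.

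**Figure D5:**
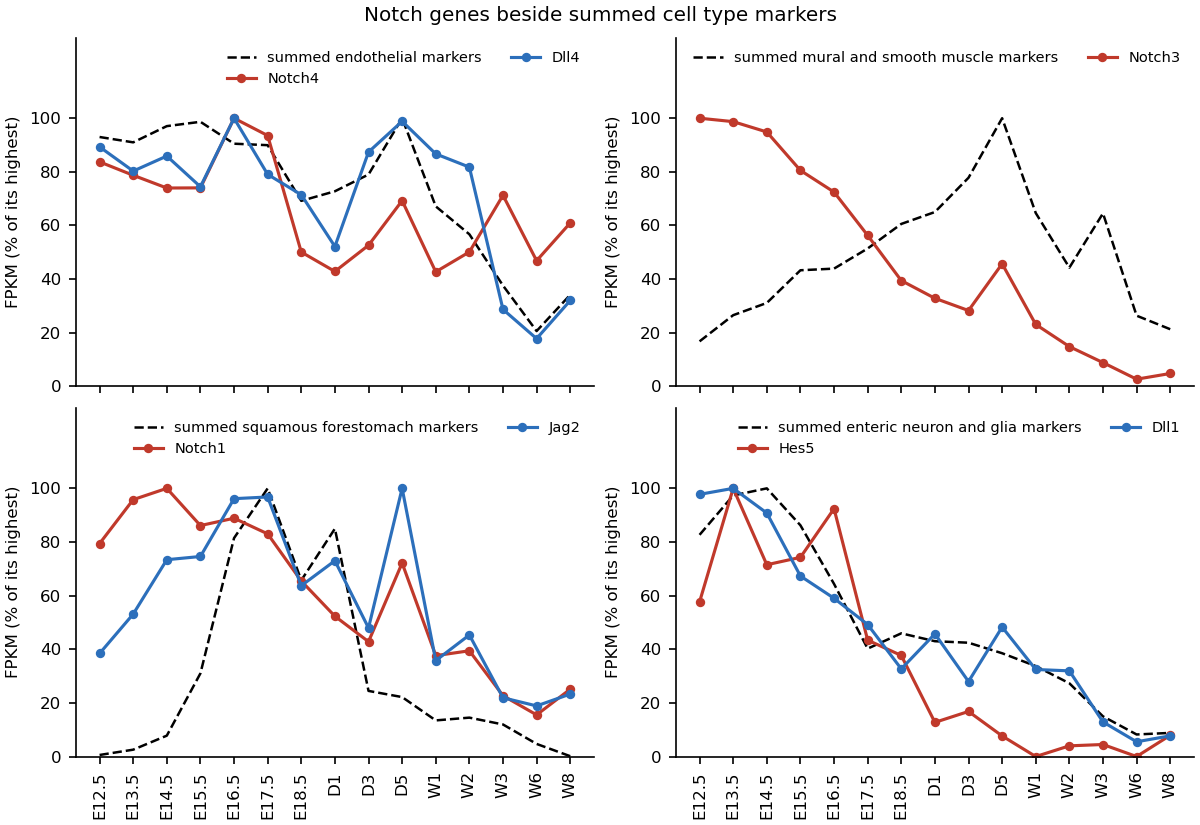
FPKM of 7 of the genes (coloured lines) and summed FPKM of 4 marker lists (dashed lines) by time point, each as a percentage of its own highest value over the 15 libraries. Dll4 and the endothelial sum are both lowest at W6, and Notch4 is not. Notch3 and the mural and smooth muscle sum run apart before birth. Of that sum Acta2, a smooth muscle gene, had 2070 of 3383 FPKM at E18.5. Jag2 is high again at D5 where the squamous sum is not. Dll1 and Hes5 are highest at E13.5 next to the highest enteric sum at E14.5.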

How the data were processed

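Total RNA of whole stomachs (Trizol, DNase, oligo beads) was sequenced on an Illumina HiSeq instrument. The deposited tables list each gene entry's FPKM and its confidence bounds. By the methods, the authors kept reads of Phred score 20 and 50 nucleotides or more, mapped them with HISAT2 and quantified them with StringTie and GENCODE. The submitters' processing notes name Bowtie 0.12.2, FastQC and GRCm38.p2, and the files have the layout of Cufflinks with RefSeq-style names, so these sources differ. One sentence of the methods names liver as the RNA source, while the labels name stomach. Depth is not stated in the files, and the bounds cover counting error only.

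Entries of a symbol were summed, and start positions were counted from 1. Symbols with a maximal FPKM of at least 1 (16902 of 44788) were tested on log2(FPKM + 1) with limma 3.58.1 in R 4.3.3, with Benjamini-Hochberg adjustment over all of them and a threshold of 0.01. All 15 libraries entered the F test and the contrasts between age groups, and the 7 fetal libraries entered the slope per day. The methods of the study used analysis of variance over phases drawn from its own data, which served here as alternatives only. A variance of 0 in some settings was offset by limma. No pair among the 15 libraries had identical values. The fits were tested on simulated data with the spread within age groups, which includes change with age. From fetal to suckling, 63 of 100 log2 changes of 1 and 93 of 100 of 2 were recovered. Of 2 sizes of fetal slope, 14 of 100 of the smaller and 75 of 100 of the larger were recovered. A change that was not called is therefore no sign of a constant level.

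The 10 genes and all lists were chosen with earlier results of these data known. Of each other pathway list, at most the 3 genes with the lowest adjusted p in the F test are named, and for each of the 10 genes the 3 symbols nearest by Pearson r. Alternatives were a pseudocount of 0.1, no filter, median-ratio scaling, the first entry of a symbol, a threshold of 0.05, the phases of the study, analysis of variance on FPKM, and leaving out libraries. Python 3.11.15, pandas 2.3.3, NumPy 2.4.6 and matplotlib 3.10.9 were used. The promoter sequences are those of RefSeq. The proteome and isoforms were not analysed here, and some results for single genes are not reported here.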

Additional observations from a re-analysis of the deposited data

How the results depend on the processing

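No paired analysis was possible because the labels carry no replicate numbers and each time point has 1 library. Of 580 repeats of the changes of single genes, 514 kept their direction and their side of the threshold, counted over both the libraries left out (332) and the other settings (182). Median-ratio scaling reversed the sign of the change for Dll4 from fetal to suckling (0.19) and per fetal day (0.00509), for Jag2 from fetal to suckling (0.012) and for Hes1 from suckling to weaned (0.17). With 1 library left out, the change from fetal to suckling ranged from -0.101 to 0.0834 for Dll4 (0.00118 without E16.5 and the highest without D1) and from -0.0671 (without W2) to 0.128 for Hes1, and the fetal slope of Notch4 ranged from -0.0611 to 0.0425 (without E18.5). In the same way the number of the 10 genes called ranged from 8 to 9 across the groups, 4 to 7 from fetal to suckling, 4 to 5 over the fetal days and 2 to 6 from suckling to weaned, where 2 were called without W6 and 3 without W8. Without E15.5, D3 and W8 together, an alternative chosen after the data had been seen, the counts were 3 from fetal to suckling and 1 from suckling to weaned, with fewer libraries in each group. Over all tested symbols, 5312 were called from suckling to weaned, against 1528 without W6, 3287 without W8, 739 without E15.5, D3 and W8, 3417 after median-ratio scaling and 8720 at a threshold of 0.05. From fetal to suckling 6990 were called, against 3780 without E15.5, D3 and W8. With weaned values from 3 libraries only, the calls at weaning rest on W6 and W8 more than on any other time point left out singly.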

Other observations

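At D5 most of the 10 genes were higher than at the neighbouring time points. Of the 10 genes, 8 had a higher FPKM at D5 than at both D3 and W1, namely all but Hes1 and Hes5, and the same 8 did so after median-ratio scaling. Of all 16902 tested symbols 44.7% did so in FPKM and 33.1% after scaling. Jag2 stood at 8.34 FPKM at D3, 17.4 FPKM at D5 and 6.22 FPKM at W1, Notch3 at 8.70, 14.1 and 7.11 FPKM, and Notch1 at 5.69, 9.59 and 5.0 FPKM. The summed endothelial markers (158 FPKM), mural and smooth muscle markers (5585 FPKM) and fibroblast and mesenchyme markers (3191 FPKM) also had their highest value of the 15 libraries at D5. D5 is 1 library, and the part of these cell types was not tested.

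Nrarp, an inhibitor that Notch itself switches on, rose over the fetal days (log2 change +0.19 per day, limma adjusted p = 0.00444), with 10.8 FPKM at E12.5 and 29.5 FPKM at E17.5. Kat2b and Dlk2 were the other pathway genes that rose over these days, and all 3 were named after their values had been seen.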
